A study of Mus musculus with 4 samples.

Results

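Voltage-gated calcium and sodium channels, hyperpolarization-activated HCN channels and cation channels of the TRP family were described in 2 lines of mouse stomach cells. Each line was grown from a clone of progenitors of interstitial cells of Cajal, which pace the slow waves of the gut. The members were chosen by gene symbol, as the names beginning Cacna, Cacnb, Cacng, Trpa, Trpc, Trpm or Trpv and the numbered Scn and Hcn genes, which gave 66 of the 23358 gene rows. One of them, Trpc4ap, encodes a protein that binds a TRPC channel and forms no channel itself. The row of Scn2a, under its older name Scn2a1, was not matched by this pattern and was not analysed here. The line 2xSCS2F10 was derived from the stomach muscle layers of C57BL/6J mice and was cultured at 37 °C in a neural stem cell medium with 5% chick embryo extract. The line 2xSCS70 was derived from the same layers of H-2Kb-tsA58 mice, whose transgene is a heat-labile SV40 T antigen driven by a promoter that interferon induces, and was cultured at 39.5 °C in the same base medium without interferon gamma, with no chick embryo extract listed. Each line is a clone and was represented by 2 libraries of polyadenylated RNA, so mouse strain, transgene, temperature and supplement changed together with the line and cannot be told apart. Whether the libraries of a line came from different cultures was not stated in the labels, so the p-values reflect the spread of these libraries alone, which may be technical.

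Voltage-gated calcium channels are built on a pore-forming alpha-1 subunit, which also sets the type of current (L, P/Q, N, R or T). The alpha-2-delta and beta subunits bring high-voltage-activated channels to the membrane and tune their gating, and most of the gamma proteins instead accompany glutamate receptors. Sodium channels pair a pore-forming alpha subunit with small beta subunits, HCN channels carry the pacemaker current of heart and neurons, and TRP channels pass cations in response to lipids, calcium, temperature or stretch. In the gut, L-type and T-type calcium channels carry calcium into smooth muscle and interstitial cells of Cajal, and sodium, HCN and TRP channels have been studied as contributors to slow waves.

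The libraries held between 40319972 and 48971264 counts in genes. All counts were even, so 1 sequenced fragment was taken as 2 counts. Differences between lines are given below in CPM, counts scaled to a common library total by the TMM method, and levels are compared between genes in the deposited RPKM, which divide by coding length. The defining receptor of mature interstitial cells of Cajal, Kit, had 0 counts in 3 libraries and 1 fragment in replicate 2 of 2xSCS70, while all 5 progenitor markers examined (Cd34, Cd44, Insr, Igf1r and Pdgfra) stood at 1 RPKM or more in every library. Of the 6 interstitial cell markers listed, Kit included, 1 reached 1 RPKM in both libraries of 2xSCS2F10 and 0 in both of 2xSCS70. Hcn4 and Cacna1h are on that list and are also members, so the list is not independent of them. Smooth muscle and mesothelial markers, given below, had higher sums in 2xSCS2F10 than in 2xSCS70.

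The promoters of 4 members that passed the test on all 4 libraries are printed here as RefSeq gives them on GRCm38.p6. Start sites were not measured in these libraries. The printed promoters run from 250 bases before to 50 bases after the RefSeq start site, on the strand of the gene. They are Cacna1b (chr2:24763103-24763402, minus strand), Cacng7 (chr7:3332575-3332874, plus strand) and Hcn2 (chr10:79716384-79716683, plus strand), which were higher in 2xSCS70, and Cacna2d1 (chr5:15934441-15934740, plus strand), which was lower. Capitals mark GC boxes, GGGCGG on either strand.
Cacna1b: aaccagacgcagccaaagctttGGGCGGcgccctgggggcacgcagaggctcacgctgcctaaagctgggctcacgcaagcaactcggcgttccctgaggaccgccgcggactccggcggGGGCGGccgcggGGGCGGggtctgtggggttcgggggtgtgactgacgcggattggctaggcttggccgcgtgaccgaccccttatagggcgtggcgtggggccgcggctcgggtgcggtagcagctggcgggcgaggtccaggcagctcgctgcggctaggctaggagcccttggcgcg
Cacng7: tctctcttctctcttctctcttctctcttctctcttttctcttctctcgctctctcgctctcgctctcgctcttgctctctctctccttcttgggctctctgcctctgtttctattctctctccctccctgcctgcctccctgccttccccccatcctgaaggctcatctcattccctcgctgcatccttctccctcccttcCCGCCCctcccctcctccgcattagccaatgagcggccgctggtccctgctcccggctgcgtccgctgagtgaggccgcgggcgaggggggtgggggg
Hcn2: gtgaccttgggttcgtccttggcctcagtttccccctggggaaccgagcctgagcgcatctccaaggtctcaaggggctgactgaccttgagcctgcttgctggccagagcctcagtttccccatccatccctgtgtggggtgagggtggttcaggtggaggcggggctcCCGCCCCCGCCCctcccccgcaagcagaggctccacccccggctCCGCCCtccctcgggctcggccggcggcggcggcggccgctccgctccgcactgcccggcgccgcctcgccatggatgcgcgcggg
Cacna2d1: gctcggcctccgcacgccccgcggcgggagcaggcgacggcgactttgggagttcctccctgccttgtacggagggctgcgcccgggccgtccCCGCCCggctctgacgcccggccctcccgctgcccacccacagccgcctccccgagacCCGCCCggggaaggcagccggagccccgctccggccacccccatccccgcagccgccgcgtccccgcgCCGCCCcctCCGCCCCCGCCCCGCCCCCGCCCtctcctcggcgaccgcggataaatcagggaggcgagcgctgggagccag

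The printed promoter of Cacna1b held 3 GC boxes, that of Cacng7 1, that of Hcn2 3 and that of Cacna2d1 7, overlapping ones included. A GC box was present in 35.7% of the 32851 mouse promoters of this length, and in 23 of the 65 promoters matched to 51 of the members. A TATA box (TATAAA on either strand) was found in none of the 4, against 13.6% of all promoters, and a CCAAT box (CCAAT on either strand) in those of Cacna1b and Cacng7, against 37.4% of all. The number of CpG dinucleotides was 35 in Cacna1b, 15 in Cacng7, 26 in Hcn2 and 42 in Cacna2d1. The median was 9 over the 65 member promoters and 7 over all promoters, so these 4 do not stand for the members. Each of the 4 printed promoters held a GC box, but these were picked after the values were seen. The promoters of Cacng8, a higher member, and of Trpm7, a lower one, held 0. These counts describe letters in 1 window per gene. The deposited row of Cacng7 begins 3760 bases inside the RefSeq start.

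The channel genes differed between the lines in both directions. Of the 66 members, 33 passed the filter on low counts and were tested, and 33 were not. Of the tested members 18 changed, 10 higher and 8 lower in 2xSCS70 (edgeR quasi-likelihood test, adjusted p below the threshold of 0.05 over all 14496 tested genes). Over all tested genes 40.6% changed, 18.8% higher and 21.8% lower. The libraries of the lines did not overlap for 28 of the 33 members, against 77.4% of all tested genes. The median log2 difference of the tested members was 0.32, and that of all tested genes was 0.02. All 10 higher members differed by 2-fold or more, as did 4 of the 8 lower ones. The share at 2-fold among all called genes was not worked out. Higher members with 3 fragments or fewer in 2xSCS2F10, such as Cacna1b, Cacna1d and Hcn3, could pass only with a large difference. The split moved to 13 higher and 3 lower when library totals were used without TMM factors, and to 12 and 7 under upper quartile scaling. These shifted the median of all genes to 0.31 and 0.11. On log2(RPKM + 1) and log2(RPKM + 0.1) values the splits were 8 and 4, and 9 and 5, with medians of 0.15 and 0.25. Without replicate 1 of 2xSCS70, 4 higher and 1 lower members passed, beside 5.86% of all tested genes, and the same numbers of members passed without its replicate 2, beside 6.13%. Without replicate 1 of 2xSCS2F10, 14 higher and 11 lower members passed, beside 66% of all genes, and without its replicate 2 the numbers were 13 and 11, beside 61.8%. The members that passed with any library left out numbered 5 and included Cacna1b, Cacng7, Hcn2 and Cacna2d1.

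**Figure D1:**
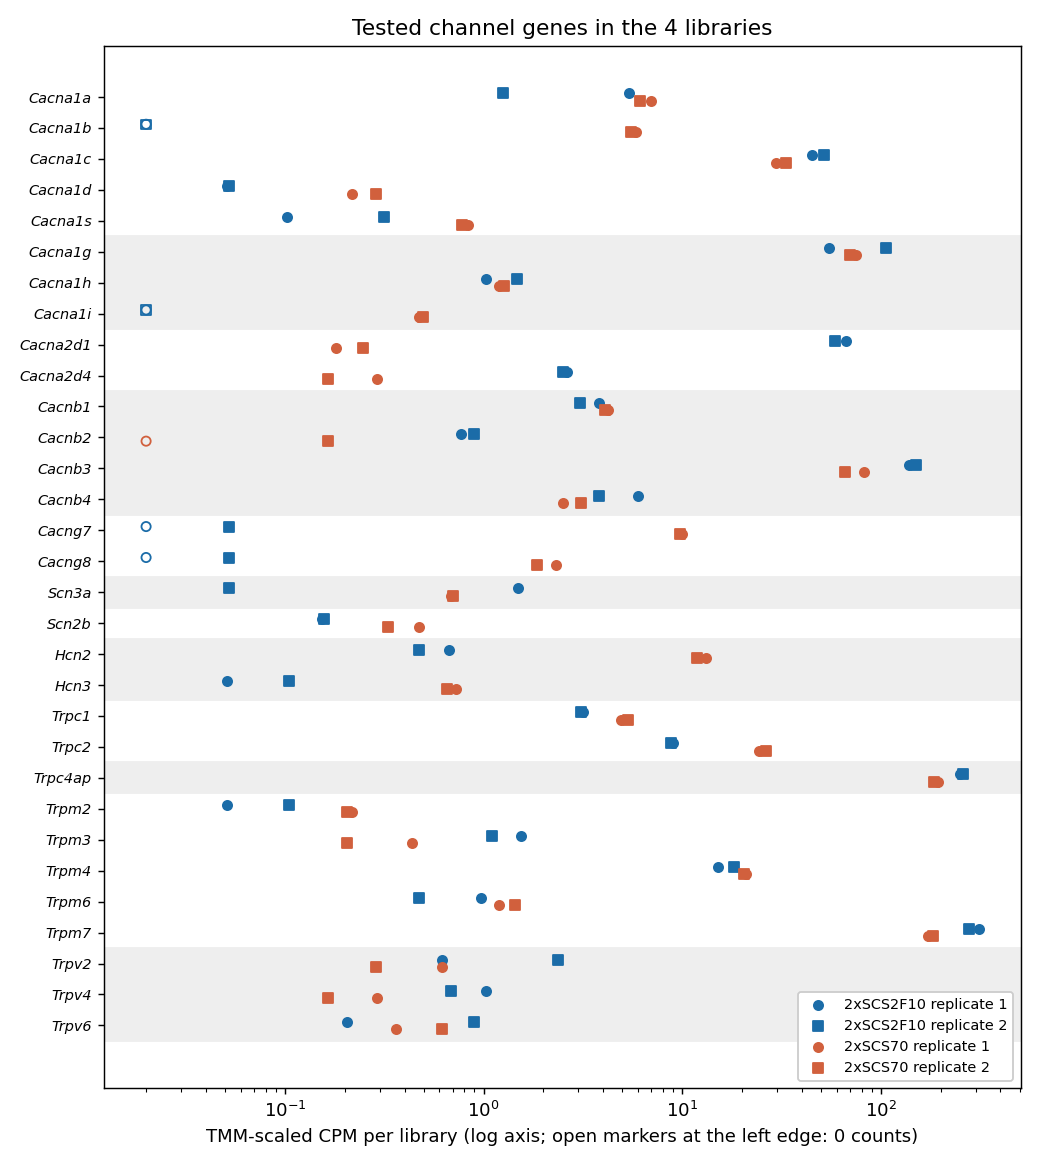
TMM-scaled CPM (log axis) of 31 of the 33 tested members in each of the 4 libraries, ordered by family on alternating grey and white bands. Circles are replicate 1 and squares replicate 2, and open markers at the left edge stand for 0 counts. Cacna1b, Cacng7 and Hcn2 lie far to the right in 2xSCS70 and Cacna2d1 far to the left.

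The summed level of each family set these genes in proportion. The 4 beta subunits of calcium channels summed to 36.0 and 32.3 RPKM in 2xSCS2F10 and to 24.8 and 18.4 RPKM in 2xSCS70, and the 8 TRPM genes to 36.7 and 28.1 RPKM and to 25.7 and 24.4 RPKM. The 4 alpha-2-delta subunits summed to 7.28 and 5.39 RPKM in 2xSCS2F10 against 0.0937 and 0.104 RPKM in 2xSCS70. The 8 gamma proteins went the other way, from 0.0329 and 0.0655 RPKM to 12.1 and 10.3 RPKM, and so did the 4 HCN genes, from 0.193 and 0.164 RPKM to 3.83 and 3.11 RPKM. The sodium channel alpha subunits matched, without Scn2a, were near the limit of detection in both lines, at 0.0344 to 0.172 RPKM summed over 9 genes. Of the members, 8 reached 1 RPKM in both libraries of 2xSCS2F10, 13 in both of 2xSCS70 and 7 in all 4 libraries.

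**Figure D2:**
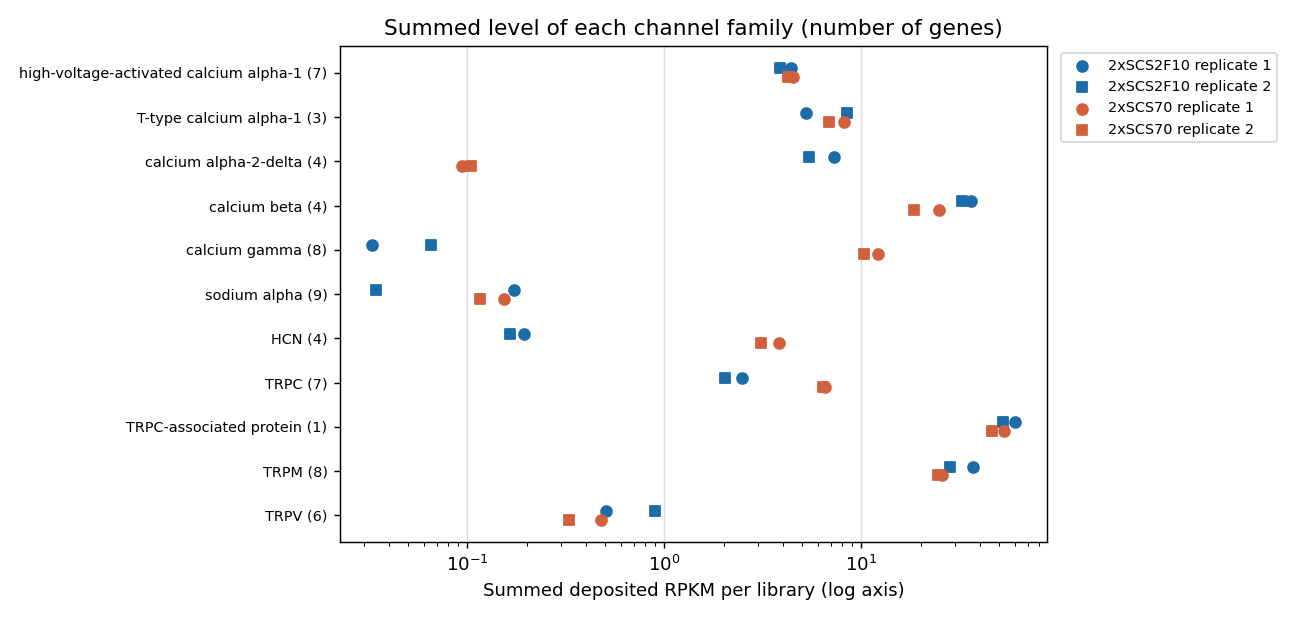
Summed deposited RPKM of each family (log axis) in each library, with the number of genes in parentheses. Alpha-2-delta subunits are lower and gamma and HCN genes higher in both libraries of 2xSCS70, while alpha-1 subunits lie close together. TRPA, with 1 gene listed at 0 RPKM in 2 libraries, is not drawn, nor are sodium channel beta subunits.

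Pore-forming calcium channel subunits were dominated by the same genes in both lines. Cacna1g, the T-type subunit Cav3.1, held 53.4% and 67.8% of the summed RPKM of the 10 alpha-1 genes in 2xSCS2F10 and 63.2% and 60.3% in 2xSCS70. Cacna1c, the L-type subunit Cav1.2 of smooth and cardiac muscle, held 39.9% and 30.0% in 2xSCS2F10 and 22.7% and 26.2% in 2xSCS70. The other T-type subunit studied in mouse interstitial cells of Cajal, Cacna1h, held about 1% in each library (0.935% to 1.10%).

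**Figure D3:**
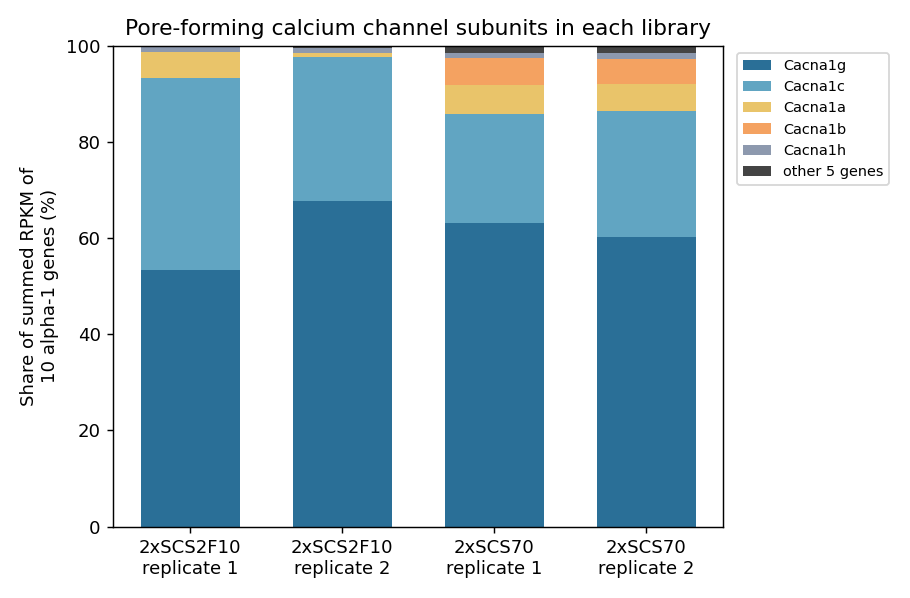
Share of the summed deposited RPKM of the 10 calcium channel alpha-1 genes (%) in each library. Cacna1g, Cacna1c, Cacna1a, Cacna1b and Cacna1h are drawn singly and the other genes are pooled. Cacna1g and Cacna1c together fill most of every bar, and Cacna1b appears in the bars of 2xSCS70 alone, at 5.57% and 5.37%.

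Cacna1g (chromosome 11, 94408391 to 94474198, mm10) stood at 54.8 and 106 CPM in replicates 1 and 2 of 2xSCS2F10 and at 75.2 and 69.7 CPM in 2xSCS70. Both values of 2xSCS70 lay between those of 2xSCS2F10, and the log2 difference was -0.15 (SE 0.32, adjusted p = 0.72). It passed as lower without replicate 1 of 2xSCS2F10 (log2 -0.57, adjusted p = 1.6e-05) and as higher without its replicate 2 (log2 0.40, adjusted p = 0.00314). Its sign also turned without scaling factors (log2 0.17). Cacna1h was at 1.03 and 1.47 CPM in 2xSCS2F10 and at 1.20 and 1.27 CPM in 2xSCS70 (log2 -0.01, SE 0.34, adjusted p = 0.976). The values overlapped, with a difference smaller than its error and a sign that turned under upper quartile scaling (log2 0.076) and without scaling factors (log2 0.29). Cacna1i, the T-type subunit Cav3.3 of neurons, had 0 counts in 2xSCS2F10 and 0.472 and 0.493 CPM in 2xSCS70. It was at least 3.10-fold higher (edgeR adjusted p = 0.0107) against a floor of 3 fragments per library. The call ended without replicate 1 (adjusted p = 0.0927) or replicate 2 of 2xSCS70 (adjusted p = 0.0941) and on log2(RPKM + 1) values (adjusted p = 0.304).

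Cacna1c (chromosome 6, 118592296 to 119196409) was at 45.0 and 51.9 CPM in 2xSCS2F10 and at 29.7 and 33.4 CPM in 2xSCS70. Both libraries of 2xSCS70 were below both of 2xSCS2F10, by 1.54-fold (log2 -0.62, SE 0.14, adjusted p = 0.0257). The call ended without replicate 1 (adjusted p = 0.235) or replicate 2 of 2xSCS70 (adjusted p = 0.164), without scaling factors (adjusted p = 0.132) and on log2(RPKM + 1) values (adjusted p = 0.235). The other L-type subunits were rare. Cacna1d, Cav1.3 of sinoatrial and neuroendocrine cells, had 2 fragments in 2xSCS2F10 and 13 in 2xSCS70, a ratio of 4.82 (95% interval 1.09 to 44.0, adjusted p = 0.0423). Its call ended whichever library was left out (adjusted p 0.0704 to 0.216), with DESeq2 (adjusted p = 0.211) and on log2(RPKM + 1) values (adjusted p = 0.634), and its row overlaps Dcp1a, a more abundant gene on the opposite strand. Cacna1s, the subunit of skeletal muscle, was at 0.103 and 0.315 CPM in 2xSCS2F10 and at 0.834 and 0.781 CPM in 2xSCS70 (log2 1.94, SE 0.58, adjusted p = 0.0507). It passed as higher under upper quartile scaling (edgeR adjusted p = 0.0433), without scaling factors (0.0266) and on fragments (0.0399). With limma on log2(RPKM + 0.1) values it also passed (adjusted p = 0.0291). It missed on log2(RPKM + 1) values (limma adjusted p = 0.0945) and with DESeq2 (adjusted p = 0.0844). The log2 difference was 1.34 without replicate 1 and 2.94 without replicate 2 of 2xSCS2F10. Without replicate 1 or replicate 2 of 2xSCS70 it was 1.89 and 1.99. Contractile smooth muscle markers, of which 6 of 7 tested fell, summed to 2304 and 3413 RPKM in 2xSCS2F10 and to 387 and 325 RPKM in 2xSCS70, with none of the 8 at 0 in either line. Their part in the lower Cacna1c was not tested, and in such bulk libraries fewer cells of a type and less RNA per cell cannot be told apart.

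Cacna1b, the N-type subunit Cav2.2 of presynaptic terminals (chromosome 2, 24606375 to 24763152), had 0 counts in both libraries of 2xSCS2F10 and stood at 5.88 and 5.51 CPM in 2xSCS70. It was at least 36.5-fold higher in 2xSCS70 (edgeR adjusted p = 0.00161) and passed without replicate 1 (adjusted p = 0.0399) and without replicate 2 of that line (adjusted p = 0.0388). Cacna1a, the P/Q-type subunit Cav2.1, was at 5.39 and 1.26 CPM in 2xSCS2F10 and at 7.002 and 6.12 CPM in 2xSCS70 (log2 0.98, SE 0.66, adjusted p = 0.279). Replicate 2 of 2xSCS2F10 stood apart, and with replicate 1 left out the gene passed as higher (log2 2.37, adjusted p = 2.36e-10), while with replicate 2 left out the difference was log2 0.28 (adjusted p = 0.248). A list of 8 neuronal markers did not move with Cacna1b in 1 direction. Its 4 tested members were 2 higher and 2 lower, its sum was 190 and 146 RPKM in 2xSCS2F10 and 18.0 and 11.9 RPKM in 2xSCS70, and Elavl4 had 0 counts in all 4 libraries. The remaining alpha-1 genes, Cacna1e (R-type) and Cacna1f (the L-type subunit of the retina), had at most 6 counts in a library and were not tested.

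Of the 4 alpha-2-delta genes, 2 were tested and both fell. Cacna2d1, which is the main form in muscle and a target of gabapentin (chromosome 5, 15934691 to 16374511), was at 67.1 and 58.8 CPM in 2xSCS2F10 and at 0.181 and 0.247 CPM in 2xSCS70. It was 293-fold lower in 2xSCS70 (log2 -8.19, SE 0.23, edgeR adjusted p = 0.000347), and passed without replicate 1 (adjusted p = 0.0215) and without replicate 2 of that line (adjusted p = 0.0213). In length-scaled terms it exceeded Cacna1c in 2xSCS2F10, at 5.99 ± 1.30 against 3.77 ± 0.0945 RPKM (SD, n = 2), and was far below it in 2xSCS70, at 0.0236 ± 0.0034 against 2.89 ± 0.0276 RPKM. Cacna2d4, known from the retina, was at 2.62 and 2.52 CPM in 2xSCS2F10 and at 0.290 and 0.164 CPM in 2xSCS70, 11.1-fold lower (log2 -3.47, SE 0.40, adjusted p = 0.00406). Its call ended without replicate 1 (adjusted p = 0.0528) or replicate 2 of 2xSCS70 (adjusted p = 0.0632). The gene Lrtm2 lies within Cacna2d4 on the opposite strand and had 1334 and 1824 counts in 2xSCS2F10 against 52 and 42 in 2xSCS70, so reads of these genes could not be told apart where they overlap. Cacna2d2 and Cacna2d3 had at most 16 counts in a library and were not tested, so no alpha-2-delta gene reached 1 RPKM in 2xSCS70. The smooth muscle markers given above moved in the same direction as Cacna2d1, and 6 of 6 mesothelial markers did too, with sums of 1192 and 1139 RPKM in 2xSCS2F10 and of 45.4 and 37.0 RPKM in 2xSCS70. Their part in this difference was not tested.

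Among the cytoplasmic beta subunits, Cacnb3 was the main form in both lines. Cacnb3, a form of smooth muscle and brain (chromosome 15, 98632220 to 98644530), was at 138 and 150 CPM in 2xSCS2F10 and at 82.1 and 66.3 CPM in 2xSCS70. It was 1.94-fold lower (log2 -0.96, SE 0.15, adjusted p = 0.00891), with no overlap, and the call ended without replicate 1 (adjusted p = 0.0709) or replicate 2 of 2xSCS70 (adjusted p = 0.11). Its level was 32.6 ± 2.21 RPKM in 2xSCS2F10 and 19.9 ± 4.42 RPKM in 2xSCS70 (SD, n = 2), above every other calcium channel subunit measured. Cacnb2, the main cardiac form, was at 0.771 and 0.892 CPM in 2xSCS2F10 and at 0 and 0.164 CPM in 2xSCS70 (log2 -3.36, SE 1.03, adjusted p = 0.0538). The size depended on 2xSCS70: it was log2 -2.32 without replicate 1 of that line (adjusted p = 0.131) and -8.20 without replicate 2 (adjusted p = 0.0506), where the remaining library had 0 counts. The gene passed as lower without replicate 1 (adjusted p = 6.13e-05) or replicate 2 of 2xSCS2F10 (adjusted p = 0.000248), with DESeq2 (adjusted p = 0.0425) and on fragments in place of counts (edgeR adjusted p = 0.0335). Cacnb4, mostly a neuronal form, was at 6.01 and 3.83 CPM against 2.50 and 3.08 CPM (log2 -0.82, SE 0.32, adjusted p = 0.0965), and passed as lower without replicate 2 of 2xSCS2F10 (log2 -1.11, adjusted p = 8.65e-05) but not without replicate 1 (log2 -0.47, adjusted p = 0.118). Cacnb1, the skeletal muscle form, was at 3.80 and 3.04 CPM against 4.21 and 4.11 CPM (log2 0.28, SE 0.24, adjusted p = 0.39).

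Neighbouring gamma genes were present in 2xSCS70 and at 1 fragment each in 2xSCS2F10. Cacng7 and Cacng8, which regulate AMPA-type glutamate receptors, lie next to each other on chromosome 7 (3336585 to 3366948 and 3394117 to 3415605), with Cacng6 beyond them (3424662 to 3434940). Cacng7 had 0 and 0.0525 CPM in 2xSCS2F10, that is 1 fragment in all, and 10.01 and 9.70 CPM in 2xSCS70. The ratio was 380 (95% interval 67.9 to 15040, edgeR adjusted p = 0.00119), and the gene passed without replicate 1 (adjusted p = 0.0332) or replicate 2 of 2xSCS70 (adjusted p = 0.0327). Cacng8 likewise had 1 fragment in 2xSCS2F10. Its libraries of 2xSCS70 stood at 2.32 and 1.85 CPM, a ratio of 80.9 (95% interval 14.2 to 3225, adjusted p = 0.00459). Its call ended without replicate 1 (adjusted p = 0.0624) or replicate 2 of 2xSCS70 (adjusted p = 0.0562). For both genes the only fragment of 2xSCS2F10 was in replicate 2, so without that library the line had 0 counts. Cacng6 had 0 counts in all 4 libraries, as did Cacng3, Cacng4 and Cacng5, and Cacng1 and Cacng2 had at most 2 counts in a library. At 9.93 ± 0.943 RPKM (SD, n = 2), Cacng7 was the second calcium channel gene of 2xSCS70 after Cacnb3, above Cacna1g (7.35 ± 0.927 RPKM). Intervals and floors cover counting error only.

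Transcripts of the 9 sodium channel alpha genes matched by the pattern, which leaves out Scn2a, were sparse in both lines. Of these genes, 7 had at most 6 counts in a library and were not tested. Scn3a, a neuronal alpha subunit, was at 1.49 and 0.0525 CPM in 2xSCS2F10 and at 0.689 and 0.699 CPM in 2xSCS70, so that the libraries of 2xSCS2F10 lay on either side (log2 -0.16, SE 1.15, adjusted p = 0.922). It passed as higher without replicate 1 of 2xSCS2F10 (log2 3.65, adjusted p = 0.000427) and as lower without replicate 2 (log2 -1.10, adjusted p = 0.0271). Scn2b, the beta-2 subunit, was at 0.154 and 0.157 CPM against 0.472 and 0.329 CPM (log2 1.35, SE 0.50, adjusted p = 0.0844).

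HCN channels were represented mainly by Hcn2, in 2xSCS70. Hcn2, a subunit of heart and brain (chromosome 10, 79716634 to 79736108), was at 0.668 and 0.472 CPM in 2xSCS2F10 and at 13.2 and 11.8 CPM in 2xSCS70. It was 21.8-fold higher (log2 4.45, SE 0.28, edgeR adjusted p = 0.000892), with replicates close together in both lines, and passed without replicate 1 (adjusted p = 0.0292) or replicate 2 of 2xSCS70 (adjusted p = 0.0279). Hcn3 was at 0.0514 and 0.105 CPM in 2xSCS2F10 (3 fragments) and at 0.726 and 0.658 CPM in 2xSCS70, a ratio of 8.91 (95% interval 2.81 to 45.2, adjusted p = 0.0114). Its call ended without replicate 1 (adjusted p = 0.102) or replicate 2 of 2xSCS70 (adjusted p = 0.0932). Hcn4, the main form of the sinoatrial node, had 0 and 2 counts in 2xSCS2F10 and 4 and 2 in 2xSCS70, under the floor of 3 fragments in every library.

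Among TRP channels, Trpm7 was the most abundant in both lines. Trpm7, a magnesium-permeable channel with a kinase domain that has been studied in gut pacemaking (chromosome 2, 126791558 to 126876261), was at 312 and 279 CPM in 2xSCS2F10 and at 172 and 184 CPM in 2xSCS70. It was 1.66-fold lower without overlap (log2 -0.73, SE 0.12, edgeR adjusted p = 0.0107). The call ended without replicate 1 (adjusted p = 0.159) or replicate 2 of 2xSCS70 (adjusted p = 0.132), without scaling factors (adjusted p = 0.0796) and on log2(RPKM + 1) values (adjusted p = 0.11). Trpm4, a calcium-activated channel for monovalent cations, was at 15.2 and 18.2 CPM against 21.0 and 20.5 CPM (log2 0.32, SE 0.16, adjusted p = 0.161). It passed as higher without replicate 2 of 2xSCS2F10 (adjusted p = 0.00717) and without scaling factors (adjusted p = 0.0341). Trpm3, a heat- and steroid-activated channel, was at 1.54 and 1.10 CPM against 0.435 and 0.205 CPM, 4.07-fold lower (log2 -2.02, SE 0.50, adjusted p = 0.0301). Its call ended without replicate 1 (log2 -2.67, adjusted p = 0.104) or replicate 2 of 2xSCS70 (log2 -1.60, adjusted p = 0.192), without scaling factors (adjusted p = 0.0501) and on log2(RPKM + 1) values (adjusted p = 0.199). Trpm6, the epithelial relative of Trpm7, was at 0.976 and 0.472 CPM against 1.20 and 1.44 CPM (log2 0.86, SE 0.45, adjusted p = 0.186), and passed as higher without replicate 1 of 2xSCS2F10 (log2 1.46, adjusted p = 0.00901) but not without replicate 2 (log2 0.43, adjusted p = 0.401). Trpm2, opened by ADP-ribose, had 3 and 11 fragments in the lines (ratio 2.72, 95% interval 0.719 to 15.2, adjusted p = 0.13). Trpm1, Trpm5 and Trpm8 had at most 8 counts in a library.

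The TRPC rows gave 1 higher gene. The row of Trpc2 was at 8.94 and 8.76 CPM in 2xSCS2F10 and at 24.4 and 26.5 CPM in 2xSCS70, 2.88-fold higher (log2 1.53, SE 0.14, edgeR adjusted p = 0.00246). The deposited row spans 102065713 to 102096416 on chromosome 7, while GENCODE M21 places Trpc2 itself, a channel of the vomeronasal organ, at 102083116 to 102096396 and the genes Xndc1 (102065511 to 102083765) and Xntrpc (102065713 to 102096864) over the same stretch and strand. The counts can therefore not be assigned to the channel. The call ended without replicate 1 (adjusted p = 0.0558) or replicate 2 of 2xSCS70 (adjusted p = 0.0625). Trpc1, a widely expressed subunit, was at 3.18 and 3.10 CPM against 4.93 and 5.34 CPM (log2 0.71, SE 0.22, adjusted p = 0.0554). It passed as higher without replicate 1 (adjusted p = 0.00971) or replicate 2 of 2xSCS2F10 (adjusted p = 0.0128), under upper quartile scaling (adjusted p = 0.0419) and without scaling factors (adjusted p = 0.0304). Trpc4 and Trpc6, which carry muscarinic cation current in gut smooth muscle, each had 2 counts in both libraries of 2xSCS2F10 and 0 in 2xSCS70. Trpc7 had 2 counts in 1 library, and Trpc5 had 0 counts in 2xSCS2F10 and 6 and 10 in 2xSCS70. Trpc4ap, the adaptor, was at 249 and 259 CPM against 194 and 186 CPM, 1.34-fold lower (log2 -0.42, SE 0.11, adjusted p = 0.0361). Its call ended without replicate 1 (adjusted p = 0.258) or replicate 2 of 2xSCS70 (adjusted p = 0.312), under upper quartile scaling (adjusted p = 0.0636) and without scaling factors (adjusted p = 0.479).

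TRPV channels were low throughout, with no member at 1 RPKM. Trpv4, an osmotically and mechanically sensitive channel, was at 1.03 and 0.682 CPM in 2xSCS2F10 and at 0.290 and 0.164 CPM in 2xSCS70, 3.70-fold lower (log2 -1.89, SE 0.50, edgeR adjusted p = 0.0356). Its call ended without replicate 1 (adjusted p = 0.143) or replicate 2 of 2xSCS70 (adjusted p = 0.229), with DESeq2 (adjusted p = 0.0524), without scaling factors (adjusted p = 0.0621) and on log2(RPKM + 1) values (adjusted p = 0.0865). Trpv2 was at 0.616 and 2.36 CPM against 0.617 and 0.288 CPM (log2 -1.70, SE 0.77, adjusted p = 0.136). The high value was that of replicate 2 of 2xSCS2F10, and the gene passed as lower without replicate 1 of that line (log2 -2.37, adjusted p = 4.97e-06). Without replicate 2 of that line the difference was log2 -0.43 (adjusted p = 0.537). Trpv6, a calcium-selective epithelial channel, was at 0.205 and 0.892 CPM against 0.363 and 0.616 CPM (log2 -0.17, SE 0.76, adjusted p = 0.872), with overlapping lines. Trpv1, the capsaicin receptor, and Trpv3 had at most 12 counts in a library, and Trpv5 had 0. Trpa1, an irritant sensor of sensory neurons, had 20 counts in replicate 1 of 2xSCS2F10 and 0 in its replicate 2, against 2 and 0 in 2xSCS70.

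**Figure D4:**
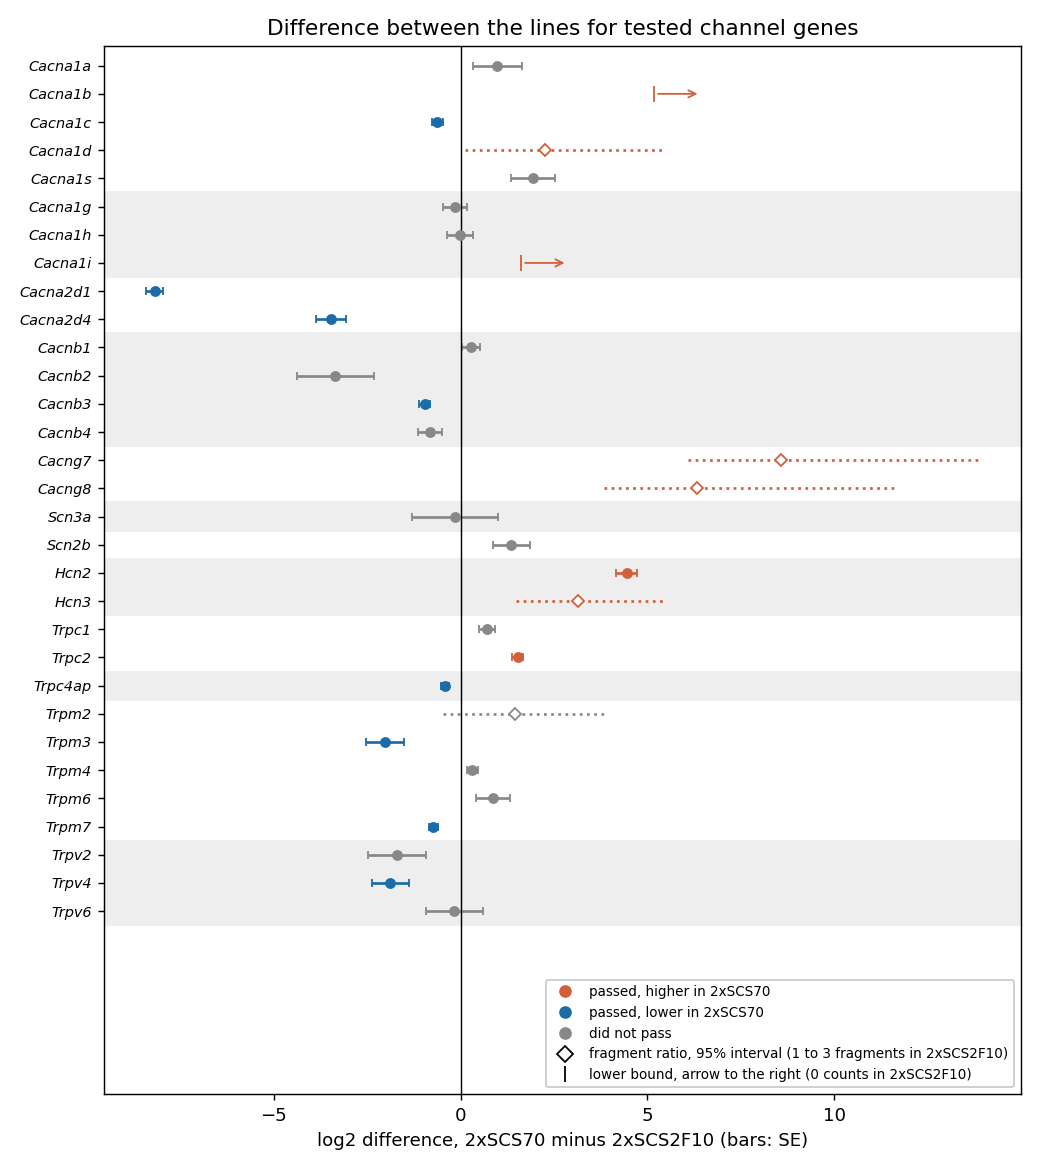
Log2 difference, 2xSCS70 minus 2xSCS2F10, of 31 of the 33 tested members with SE, coloured by the test. Open diamonds are fragment ratios with 95% intervals where 2xSCS2F10 had 1 to 3 fragments, and arrows start at the lower bound where it had 0 counts. Cacna2d1 stands farthest to the left, at -8.19, and Cacng7, Cacng8, Cacna1b and Hcn2 to the right.

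The 33 untested members had at most 20 counts and 0.093 RPKM in any library, and 6 of them had 0 counts throughout. Libraries of 2xSCS2F10 differed by more than 2-fold for 9 of the 28 tested members with counts in both, and libraries of 2xSCS70 for 3 of 32. The same share over all tested genes was not worked out. Some of the 9 had few fragments, such as Hcn3 and Trpm2, each with 2 and 4 counts in 2xSCS2F10.

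Related channels and partner proteins were examined as lists of their own. Of 21 related cation channel genes, 20 had a row and 10 were tested, of which 1 was higher and 4 lower (median log2 difference -0.41). Over all tested genes 18.8% were higher and 21.8% lower. The higher one, Catsper2, a sperm calcium channel named after its values were seen, was at 2.26 and 3.46 CPM in 2xSCS2F10 and at 5.22 and 6.37 CPM in 2xSCS70 (log2 1.02, SE 0.30, edgeR adjusted p = 0.0496). It missed the threshold without replicate 1 (adjusted p = 0.197) or replicate 2 of 2xSCS70 (adjusted p = 0.298). Mcoln2, an endolysosomal TRP channel, was at 2.77 and 2.05 CPM in 2xSCS2F10 and at 0.0726 and 0 CPM in 2xSCS70, lower by a ratio of 62.6 (95% interval 16.9 to 525, edgeR adjusted p = 0.00637). Pkd2l2, a polycystin, was at 13.9 and 16.7 CPM against 6.13 and 6.16 CPM (2.49-fold lower, log2 -1.32, SE 0.18, adjusted p = 0.00653). Scnn1a, a subunit of the epithelial sodium channel, was at 28.1 and 11.0 CPM against 3.16 and 3.08 CPM (6.26-fold lower, log2 -2.65, SE 0.48, adjusted p = 0.0133). Nalcn, the sodium leak channel that has been studied in gut pacemaker cells, was at 0.719 and 0.367 CPM in 2xSCS2F10 and at 0.0726 and 0 CPM in 2xSCS70, lower by a ratio of 14.1 (95% interval 3.46 to 124, adjusted p = 0.036). Both fragments of Mcoln2 and of Nalcn in 2xSCS70 were in replicate 1. Without replicate 1 of 2xSCS2F10 the difference of Scnn1a was log2 -1.83. Mcoln2 passed with any library left out, while Pkd2l2, Scnn1a and Nalcn missed the threshold without replicate 1 (adjusted p 0.0993, 0.118 and 0.0811) and without replicate 2 of 2xSCS70 (0.10, 0.121 and 0.15).

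Of 28 partner and regulator genes, 20 were tested, of which 3 were higher and 7 lower (median log2 difference -0.36). The shares over all tested genes were 18.8% higher and 21.8% lower. Rem1, a small GTPase that inhibits high-voltage-activated calcium channels, was at 7.09 and 5.62 CPM in 2xSCS2F10 and at 0.254 and 0.0822 CPM in 2xSCS70, 36.5-fold lower (log2 -5.19, SE 0.52, edgeR adjusted p = 0.00279). Akap5, which anchors kinase and phosphatase at L-type channels, was at 76.4 and 151 CPM against 2.00 and 2.88 CPM (46.6-fold lower, log2 -5.54, SE 0.45, adjusted p = 0.00163). Slc9a3r1, a scaffold that binds TRPC4 and TRPC5, was at 541 and 439 CPM against 99.4 and 85.0 CPM (5.32-fold lower, log2 -2.41, SE 0.17, adjusted p = 0.00121). Ank3, the ankyrin that clusters sodium channels, was at 14.5 and 16.0 CPM against 60.3 and 63.8 CPM, 4.07-fold higher (log2 2.02, SE 0.13, adjusted p = 0.001). These 4 passed with any library left out, and without replicate 1 of 2xSCS70 the difference of Rem1 was log2 -6.22. Stac2, an adaptor of L-type channels named after its values were seen, was also higher (adjusted p = 0.0195), but not without replicate 1 (adjusted p = 0.136) or replicate 2 of 2xSCS70 (adjusted p = 0.101). Its only fragment in 2xSCS2F10 was in replicate 2. Both lists were drawn up with earlier results of these libraries known and are not independent evidence of a direction.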

How the data were processed

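Per the labels' protocols, RNA came from a miRNeasy (Qiagen) extraction and libraries from the Illumina TruSeq mRNA kit. Such a kit does not mark strand. TopHat2 2.0.6, Bowtie and HTSeq and the build mm10 are named in the submitters' processing notes, and no source used here gives the gene annotation. Per the file headers, each deposited table holds unnormalised counts, and RPKM values that the authors scaled by coding length. Gene names turned into dates (25) were restored from the tables that kept them. No member was among the 69 rows that share a name.

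The comparison of the lines used edgeR 4.0.16 under R 4.3.3 (glmQLFTest, TMM scaling, filterByExpr, Benjamini-Hochberg adjustment over 14496 genes). Samples were grouped by the titles in the labels. SE is the absolute log2 difference divided by the square root of F. A line at 0 counts was compared with a floor of 3 fragments per library (0.109 to 0.157 CPM), and a line with 1 to 3 fragments by a ratio with an exact 95% interval. Other settings tried were a block for the replicate number, RLE, upper quartile and no scaling factors, all rows, rows with a mean of at least 1 CPM, fragments, DESeq2 1.42.0, limma 3.58.1 on log2(RPKM + 1) and log2(RPKM + 0.1), each library left out, limits of 0.5 and 2 RPKM for detection, and shares of counts without length scaling. Fits with 1 library in a line assume that it varies as the other line does. Members and lists were chosen with earlier results of these data known. Tested members were named, except that results of some genes are not reported here, and up to 4 called genes of each other list by adjusted p. Promoters were those of RefSeq on GRCm38.p6. The printed ones were picked after the values were seen. Lists of glial and skeletal muscle markers had 1 of 3 and 0 of 2 tested genes called. The list of interstitial cell markers had 1 of 3, with Cacna1h, a member, among the tested genes. Its sums were 5.10 and 2.76 RPKM in 2xSCS2F10 and 0.692 and 0.731 RPKM in 2xSCS70. Of 5 progenitor markers 2 were higher and 1 lower. Over all tested genes 40.6% were called.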

Additional observations from a re-analysis of the deposited data

How the results depend on the processing

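Over 41 named genes and all alternatives, 445 of 560 values kept their direction and their side of the threshold. Without scaling factors 3 members passed as lower, while 4 passed with limma on log2(RPKM + 1) and 5 on log2(RPKM + 0.1). All genes lower then numbered 2052, 1828 and 1964. With a mean of at least 1 CPM, 6 members passed as higher, since fewer were tested. On both RPKM scales 7 related channels and partners passed as higher, and 7 as lower on log2(RPKM + 0.1). With 1 library left out, members higher ranged from 4 to 14 and lower from 1 to 11, related genes higher from 1 to 10 and lower from 4 to 17, and all genes higher from 291 to 4772 and lower from 559 to 4795. The sign turned for 4 uncalled members. For Cacna1g it was 0.17 without scaling factors, 0.14 with limma at a pseudocount of 1 and 0.16 at 0.1, and from -0.57 to 0.40 with a library left out. For Cacna1h it was 0.0043 with the replicate block, 0.076 under upper quartile scaling, 0.29 without scaling factors, 0.0041 at a mean of 1 CPM, 0.025 and 0.13 with limma, and from -0.26 to 0.26 with a library left out. For Scn3a it was 0.52 with the block, 0.068 without scaling factors, 0.00026 and 0.088 with limma, and from -1.10 to 3.65 with a library left out. For Trpv6 it was 0.037 with the block, 0.16 without scaling factors, 0.018 and 0.14 with limma, and from -0.89 to 1.23 with a library left out. The cause of these turns was not tested. Libraries with the same replicate number also share a tag in their column headers, whose meaning is not stated (r of deviations 0.054 across 14496 genes). With the replicate number as a block 9 members passed as higher and 8 as lower, Cacna1d (adjusted p = 0.0978) and Trpc4ap (adjusted p = 0.0798) missing and Cacnb2 (adjusted p = 0.0481) joining. Members under 3 fragments in a library lie below what this depth resolves.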
